A study of Homo sapiens with 6 samples.

Results

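The genes of glucose uptake, glycolysis and pyruvate fate were examined in A375, a cell line established from a human melanoma. The 38 members were the rows of the deposited table whose symbol was on a list of glucose transporters, glycolytic enzymes, regulators of phosphofructokinase, lactate dehydrogenases, the pyruvate carrier, pyruvate dehydrogenase with its kinases and a phosphatase, and the arrestin-like pair TXNIP and ARRDC4. All 38 were found among 28395 rows. The cells are labelled wild type and were grown in DMEM with fetal bovine serum, and they were kept for 6 h with 0.01% oil, which was plain olive oil in the control group (OLO) and the ozonated form in the treated group (OZO). RNA-seq was performed on 3 OLO and 3 OZO libraries.

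The column used here is the mean log2 CPM, a read count scaled to the size of its library, over all 6 libraries, so each level below is an average of OLO and OZO cells together. The table's fold changes and tests between the groups are the authors' own comparison and were not used. No difference between OZO and OLO is therefore given for any gene. Per-library values were not used here, and the spread between libraries is unknown. Levels of different genes were compared as CPM per kb of the canonical GENCODE transcript, and no test was made between genes. The 6 libraries had a geometric mean size of 18409903 counted fragments, recovered from the lowest values of the table, and 21383 rows had a read in at least 1 library. Implied reads per library, given below as reads, come from the mean on the log scale. Such a mean lies below the ordinary mean where counts differ between libraries.

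Glycolysis converts glucose to pyruvate in the cytosol. Glucose enters through facilitative transporters, is trapped by phosphorylation, and is cleaved to triose phosphates that yield ATP and NADH. Pyruvate is then either reduced to lactate, which regenerates NAD+, or carried into mitochondria and oxidised by the pyruvate dehydrogenase complex. Tumour cells, melanoma among them, are known for converting much of their glucose to lactate also in the presence of oxygen.

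The melanoma identity of the line was checked first with markers. SOX10, a neural crest and melanocyte transcription factor, stood at 919 implied reads per library and MITF at 499. Pigment genes were low, with 36.6 reads for MLANA, 5.75 for PMEL and none for TYR. The 4 markers of the dedifferentiated melanoma state ranged from 85 reads for SOX9 to 4915 for AXL, with EGFR at 520 and NGFR at 696. Of the markers of other cells, CD3E and CDH5 were at 0.1 reads each and PTPRC at 1.07, whereas KRT14, a keratinocyte keratin, had 77.5 reads. The whole list of 9 markers of other cells ranged from 0.1 to 77.5 reads.

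As a group the members were highly expressed. Their median was 30.7 CPM per kb, against 2.07 over the 19738 genes with a read and a known length. In rank, 18 of the 38 members were in the top 10% of those genes. That number was 21 over all 25497 rows with a known length, and 11 when genes averaging under 10 reads left the ranking. The members took 1.78% of the summed CPM of the whole table, and the 5 most abundant, GAPDH, ENO1, PKM, LDHA and LDHB, made up 70.2% of that amount. The range was wide, from 3454 CPM per kb for GAPDH to 0.0514 for PFKFB1.

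**Figure D1:**
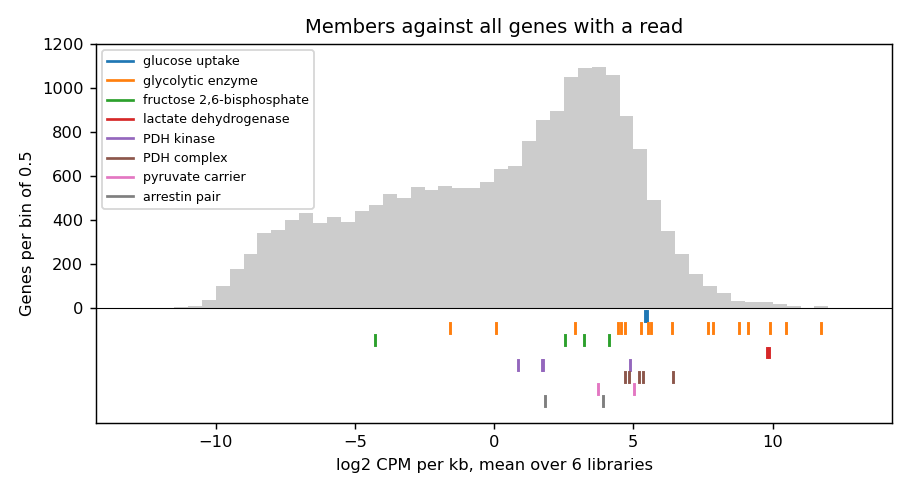
Grey bars count genes with a read by their log2 CPM per kb, in bins of 0.5. Coloured ticks below mark the 38 members by role. The glycolytic enzymes and lactate dehydrogenases reach the upper end of the distribution, with GAPDH at 3454 CPM per kb, and PFKFB1 at 0.0514 lies farthest to the left.

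Both listed glucose transporters were expressed, at similar mRNA levels. SLC2A1 encodes the widespread transporter GLUT1 and SLC2A3 encodes the high-affinity transporter GLUT3. SLC2A3 had a mean of 7.41 log2 CPM, or 44.4 CPM per kb, and SLC2A1 had 7.19, or 43.0 CPM per kb. Their ratio of 1.03 became 0.895 with the longest transcript as the length, so no order between them can be given. Reads of SLC2A3 could also be split with its close paralogue SLC2A14, which had 15.8 implied reads per library against 3131 for SLC2A3.

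HK1 and HK2 made up nearly all of the hexokinase level, and PFKP and PFKM most of the phosphofructokinase level. Hexokinase phosphorylates glucose. HK1 (chromosome 10, 69269984 to 69401884) had 3312 implied reads per library and 50.0 CPM per kb, and HK2 (chromosome 2, 74834127 to 74893359) had 4037 reads and 39.0 CPM per kb. HK2 is the isoform commonly raised in tumours and HK1 the broadly expressed form. Their order depended on the length used, since the ratio of HK2 to HK1 was 0.78 with canonical transcripts and 1.42 with the merged exons of each gene. HKDC1, a hexokinase domain protein, was far lower, at 22.4 reads and 0.333 CPM per kb.

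Phosphofructokinase commits fructose 6-phosphate to glycolysis and exists as platelet, muscle and liver subunits. PFKP, the platelet subunit, made up 57.8% of the summed level of the step, PFKM, the muscle subunit, 32.8%, and PFKL, the liver subunit, 9.4%. This order was the same with all lengths tried, and PFKP was 6.14 to 10.2 times as abundant as PFKL, or 5.55 times without scaling. GPI, the isomerase between these steps, stood at 83.3 CPM per kb. SENP1, on the opposite strand, shares 516 exon bases with PFKM and had 1306 reads against 1473 for PFKM. The part of SENP1 in the PFKM count was not tested.

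The bifunctional PFKFB enzymes make and degrade fructose 2,6-bisphosphate, the main allosteric activator of phosphofructokinase. PFKFB3 led with 17.4 CPM per kb and a share of 53.2%. PFKFB4 followed at 9.42 CPM per kb and PFKFB2, known as the heart isoform, at 5.79. Without length scaling PFKFB2 exceeded PFKFB4, with a ratio of PFKFB4 to PFKFB2 of 0.805. YOD1, on the opposite strand, shares 315 exon bases with PFKFB2 and had 2894 reads against 754 for PFKFB2, and because the use of strand in counting is not stated, its part in the PFKFB2 count was not tested.

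PFKFB1 (chromosome X, 54932961 to 54998534), known as the liver and muscle isoform, was at the floor set here of 3 reads per library. The floor was applied to the mean on the log scale. That mean implied 1.93 reads, with a 95% Poisson interval of 1.03 to 3.49 that covers counting error only. The interval was computed from the log-scale mean. Because the libraries differed in count, as shown next, the ordinary mean is higher. More can be read from the table, because voom adds 0.5 to each count and the mean log2 value of a rarely read gene then gives back a product of 6 odd numbers, each being a library's count doubled plus 1. For PFKFB1 this product was 13167, with the 5 prime factors 3, 3, 7, 11 and 19. At least 1 of the 6 libraries therefore had no read of PFKFB1, and another had at least 9 reads. Even the smallest counts that these factors allow give PFKFB1 an ordinary mean above the floor of 3 reads. The same reading for HKDC1 (chromosome 10, 69220332 to 69267552) gave a largest prime factor of 73, so that 1 library had at least 36 reads. The mean of the others on the log scale was at most 20.4, which does not bound their ordinary mean. For ENO3 (chromosome 17, 4948092 to 4957131) the largest factor was 107, which requires at least 53 reads in 1 library. The others had a log-scale mean of at most 24.8. Which libraries these were cannot be read from a mean.

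The cleavage and triose steps had higher levels than the steps before them. Aldolase cleaves fructose 1,6-bisphosphate, and ALDOA supplied 96% of its level with 559 CPM per kb, against 23.4 for ALDOC, known as the brain isoform. Another protein-coding gene on the same strand shares 42.8% of the exon bases of ALDOA, and its part in the ALDOA count was not tested. TPI1, which interconverts the triose phosphates, had 443 CPM per kb. The summed level of aldolase was 582.5 CPM per kb, against 78.8 for phosphofructokinase, 83.3 for GPI and 89.3 for hexokinase. The gap was smaller without length scaling, at 955 CPM for aldolase and 598 for TPI1 against 400.4 for hexokinase.

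The most abundant glycolytic enzymes, GAPDH, ENO1 and PKM, act at the later steps of the pathway. PGK1 and PGAM1, also later, were below ALDOA and TPI1 per kb. Without length scaling PGK1 had 973 CPM, above ALDOA with 917 and TPI1 with 598, whereas PGAM1 with 420 stayed below both. GAPDH (chromosome 12, 6534512 to 6538374), which oxidises glyceraldehyde 3-phosphate, had 81702 implied reads per library and ranked 7 among all rows of the table by CPM. PGK1, the first ATP-forming kinase, had 202 CPM per kb and PGAM1, the mutase after it, 233. Their order reversed with merged exons, at 179 for PGK1 and 165.5 for PGAM1. ENO1 (chromosome 1, 8861000 to 8879190), the common enolase, had 1409 CPM per kb and 98.4% of the enolase level. ENO2, the neuronal enolase, had 21.6 CPM per kb and ENO3, the muscle enolase, had 1.05. PKM, pyruvate kinase, had 947 CPM per kb, and the table does not separate its spliced forms.

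Reads of these abundant genes may be split with processed pseudogenes. RefSeq names 111 pseudogenes after members, 65 of them after GAPDH, and 3 of the 111 had a row in the table. These 3 rows held 12.3 reads for TPI1 and 1.1 for PGAM1. Reads that fall in the other pseudogenes were not analysed here. Exons of PFN1, on the opposite strand, share 111 bases with those of ENO3, and PFN1 had 9044 reads against 28.2 for ENO3. Its part in the ENO3 count was not tested.

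**Figure D2:**
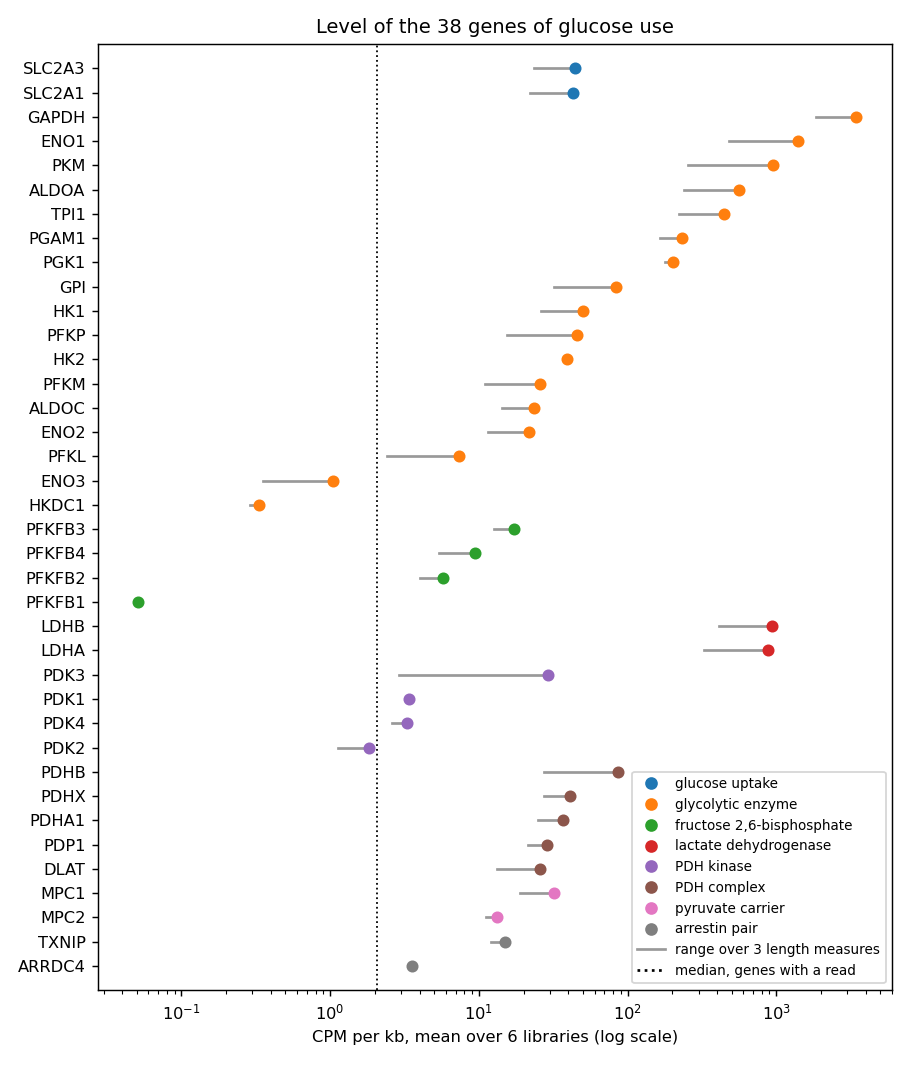
Each point is the level of a member in CPM per kb of the canonical transcript, on a log axis, coloured by role. Grey lines span the values with canonical, merged-exon and longest-transcript lengths, and the dotted line is the median of genes with a read, 2.07. Most members lie to the right of that line, and PFKFB1, HKDC1, ENO3 and PDK2 lie to its left.

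Lactate dehydrogenase was among the most abundant activities by mRNA. LDHA (chromosome 11, 18394560 to 18408425) encodes the M subunit, which favours the reduction of pyruvate, and LDHB (chromosome 12, 21635342 to 21757857) the H subunit. LDHA had 36353 implied reads per library and LDHB 22513. Scaled by length, LDHA had 881 CPM per kb and LDHB 938.5, a ratio of LDHA to LDHB of 0.939. The ratio was 0.799 with merged exons, 1.11 with the longest transcript and 1.61 without scaling. Both subunits were thus abundant, and their order depended on the length assigned to them. Another protein-coding gene on the same strand shares 997 exon bases (33.4%) with LDHB. Its part in the LDHB count was not tested.

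The carrier genes for entry of pyruvate into mitochondria were expressed at lower levels. MPC1 and MPC2 form the carrier of the inner membrane as a heterodimer. They had 536 and 542 implied reads per library, nearly equal before scaling, and 32.2 and 13.2 CPM per kb after it, because their canonical transcripts measure 904 and 2223 bases. DCAF6, on the opposite strand, shares 575 exon bases with MPC2 and had 1174 reads. Its part in the MPC2 count was not tested.

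The subunits of pyruvate dehydrogenase, which turns pyruvate into acetyl-CoA, lay close together. PDHA1 and PDHB encode the E1 subunits, DLAT the E2 core and PDHX the protein that binds E3. Before scaling they ranged from 1845 reads per library for DLAT to 2383 for PDHB. Per kb they stood at 36.8 for PDHA1, 85.9 for PDHB, 25.9 for DLAT and 40.8 for PDHX. The high value of PDHB rested on a canonical transcript of 1507 bases, and its ratio to PDHA1 of 2.34 became 0.816 with its longest transcript of 4459 bases. PDP1, the phosphatase that activates the complex, had 28.6 CPM per kb. LDHA was 24 times as abundant per kb as PDHA1, and 13.2 times with merged exons.

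The kinases that inactivate pyruvate dehydrogenase had a median of 3.33 CPM per kb, against 7.6 for the PFKFB enzymes. Their sum was 37.7, against 32.6 for the PFKFB enzymes. The order of the sums rested on PDK3 and reversed with merged exons and with the longest transcript, where PDK3 had 2.915 and 4 CPM per kb. PDK3 (chromosome X, 24465244 to 24550466) and PDK1 had the most reads, with 937 and 873 per library, followed by PDK4 with 218 and PDK2 with 113. PDK3 had 29.2 CPM per kb and 77.5% of the family on a canonical transcript of 1741 bases. That share was 29.6% with merged exons, where PDK1 led, and 32% with the longest transcript of 12720 bases. PDK2 was the lowest and PDK4 the next lowest with all 3 lengths and without scaling, although PDK1 exceeded PDK4 by only 1.03 times on canonical lengths (3.37 against 3.28 CPM per kb). The order of PDK3 and PDK1 depended on the length. SAMD14, on the opposite strand, shares 38.6% of the exon bases of PDK2 and had 7.64 reads.

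TXNIP and ARRDC4 encode arrestin-like proteins that restrain glucose uptake and respond to sugar phosphates through the MondoA and MLX factors. TXNIP (chromosome 1, 145992435 to 145996579) had 805 reads per library and 15.1 CPM per kb, and ARRDC4 (chromosome 15, 97960703 to 97973833) had 264 reads and 3.54 CPM per kb. TXNIP exceeded ARRDC4 by 3.43 to 4.26 times over the lengths used, and by 3.05 times without length scaling.

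**Figure D3:**
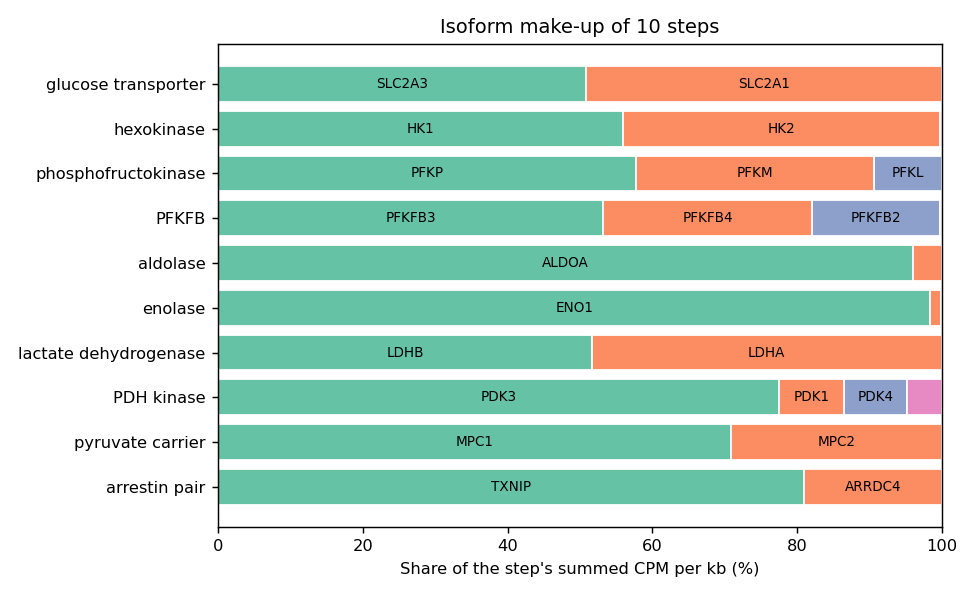
Each bar splits the summed CPM per kb of a step among its isoforms, in percent, with the colours giving rank within the step and unlabelled segments under 7%. ALDOA (96%) and ENO1 (98.4%) fill nearly all of their steps, whereas SLC2A3 with SLC2A1 and LDHB with LDHA split theirs almost evenly.

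The rest of the pathway was taken from a list of 50 other genes. Of these, 29 had a mean of at least 10 reads, 19 were at or below 3 reads and 7 had no read in any library. The highest per kb were BSG, the chaperone of lactate transporters, at 126, the lactate transporter SLC16A1 at 108, DLD, the E3 subunit shared by pyruvate dehydrogenase, at 64.5, the phosphatase MINPP1 at 31.7 and the ADP-dependent glucokinase ADPGK at 29.6. SLC16A1 was 187 times as abundant per kb as SLC16A3, the other main lactate exporter, which had 27.5 reads, and 394 times with merged exons.

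Among isoforms of the steps that the members cover, 13 of 25 were at or below 3 reads by the log-scale mean. SLC2A2, SLC2A8, PGK2 and PDHA2 had no read in any library, which allows a mean of up to 0.615 reads per library (exact 95% Poisson bound). PGK2 and PDHA2 are known as testis forms. MPC1L had exactly 1 read in all, and PKLR, the liver and red cell pyruvate kinase, had exactly 2, both in the same library. SLC2A5, a fructose transporter, and SLC2A4, the insulin-responsive transporter, had log-scale means of 0.221 and 0.649 reads. HK3, LDHD and LDHAL6B had log-scale means of 0.733, 0.586 and 2.09 reads. Ordinary means can be higher.

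The lowest members differed from the rest in the DNA before their start sites, a feature noticed after the values were seen. In 29 members a RefSeq start coincided with the start of the canonical transcript. Within the 250 bases before it, PFKFB1 had 1 CG dinucleotide and HKDC1 and ENO3 had 3 each, whereas the other 26 members had 9 to 34. Over all 15368 genes with such a start, 17% of the 3000 genes with fewer than 5 CG had a mean of at least 10 reads, against 75.9% of the 12368 genes with more. Of the 3 members with fewer than 5 CG, 2 (HKDC1 and ENO3) had at least 10 reads, as had all 26 of the others, and nothing particular to the members is shown. The start condition left out PFKM, with 1 CG before its nearest RefSeq start and 25.9 CPM per kb, and PGAM1, with 5 CG and 233 CPM per kb. LDHB had 9 CG and a level of 938.5 CPM per kb, so CG content did not order the members above that split.

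The upstream sequences of the highest and lowest isoform of enolase and of PFKFB are shown to make this contrast visible, with CG in capitals. These families were picked for the contrast after the values were seen, and not every family showed it. PDK2, the lowest PDH kinase, had 24 CG. The printed sequences are RefSeq sequences of GRCh38.p14 written on the gene's strand, each ending at the base before the start. ENO1 lies on the minus strand at chr1:8878687-8878936 and ENO3 on the plus strand at chr17:4950869-4951118. PFKFB3 lies on the plus strand at chr10:6202682-6202931 and PFKFB1 on the minus strand at chrX:54994189-54994438.
ENO1: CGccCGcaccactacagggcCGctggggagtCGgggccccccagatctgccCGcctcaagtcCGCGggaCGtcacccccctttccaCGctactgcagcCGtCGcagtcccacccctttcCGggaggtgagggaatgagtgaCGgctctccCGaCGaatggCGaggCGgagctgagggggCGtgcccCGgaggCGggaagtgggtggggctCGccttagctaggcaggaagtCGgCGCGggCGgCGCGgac
ENO3: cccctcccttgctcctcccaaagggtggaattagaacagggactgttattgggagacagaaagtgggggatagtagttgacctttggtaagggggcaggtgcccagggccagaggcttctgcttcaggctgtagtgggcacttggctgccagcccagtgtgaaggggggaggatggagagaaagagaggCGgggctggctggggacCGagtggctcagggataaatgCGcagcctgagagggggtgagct
PFKFB3: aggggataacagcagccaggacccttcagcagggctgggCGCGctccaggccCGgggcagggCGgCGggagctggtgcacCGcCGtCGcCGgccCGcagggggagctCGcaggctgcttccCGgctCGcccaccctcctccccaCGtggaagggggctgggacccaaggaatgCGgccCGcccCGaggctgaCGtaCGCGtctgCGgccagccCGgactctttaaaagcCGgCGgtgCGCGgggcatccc
PFKFB1: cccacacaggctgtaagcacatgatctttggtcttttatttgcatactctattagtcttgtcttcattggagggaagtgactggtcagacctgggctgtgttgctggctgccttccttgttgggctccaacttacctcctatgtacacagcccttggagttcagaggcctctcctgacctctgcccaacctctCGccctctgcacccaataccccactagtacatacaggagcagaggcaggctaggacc

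ENO1 had 27 CG in this window and 1409 CPM per kb, and ENO3 had 3 and 1.05. PFKFB3 had 26 CG and 17.4 CPM per kb, and PFKFB1 had 1 and 0.0514.

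**Figure D4:**
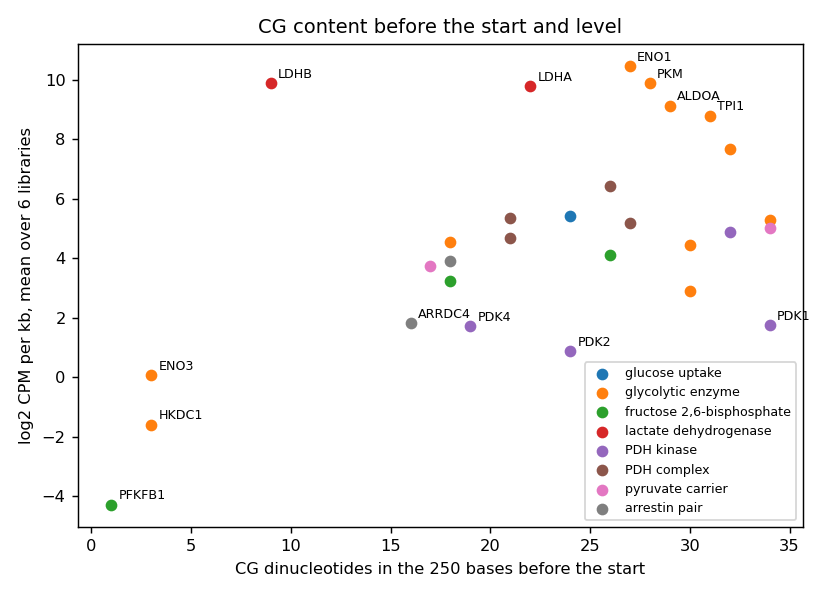
Points are the 29 members whose RefSeq and canonical starts coincide, by the number of CG dinucleotides in the 250 bases before the start (horizontal) and log2 CPM per kb (vertical), coloured by role. PFKFB1, HKDC1 and ENO3 sit at 1 to 3 CG and at the lowest levels, and the other members at 9 to 34 CG show no single order.

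Sequence words were then counted on both strands of the same window in 35 members, using for each the RefSeq start nearest to the canonical one, which lay up to 3283 bases away (PFKM). ACGTG, a core bound by hypoxia-inducible factors, occurred in 16 members (45.7%) and in 18.5% of all 35116 windows. CACGTG, an E-box that contains ACGTG and is bound by MYC and by the MLX partners, occurred in 7 members (20%) and in 6.34% of all windows. GCGTG, the other hypoxia core, occurred in 16 members (45.7%) and 32.2% of windows, and TATAAA in 2 members (5.71%) and 10.7%. The members' windows were also richer in G and C, with a median of 70.4% against 58%. They held more CG dinucleotides too, with a median of 24 against 11 over all windows. Each word counted here other than TATAAA contains a CG dinucleotide. The set of all windows was not matched to the members for CG content or for expression. Whether the members had more of these words than windows of similar CG content was not tested. The 7 members with CACGTG were PFKFB3, ALDOC, GAPDH, LDHA, PDK2, PDHB and ARRDC4. The start used for GAPDH lay 747 bases from the canonical one, and its window lay inside the gene. For the other members with CACGTG the starts coincided. A match to these sequence words is a description of the sequence, and binding was not measured.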

How the data were processed

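RNA-seq was carried out on 3 OLO-treated and 3 OZO-treated A375 libraries. The authors aligned paired-end reads to hg38 with HISAT2 2.1.0, counted them per gene with featureCounts 2.1.1 and fitted limma-voom (limma 3.58.1) to the counts. The library kit was directional, but the use of strand in counting, its annotation, normalization factors and filters are not given in the sources used here. The deposited log2 values are mean log2 CPM over all libraries, with 0.5 added to each count by voom. The table's 5 other columns hold the authors' comparison (fold change, moderated statistic, p-value, adjusted p-value, log odds) and were not used, so no comparison between groups was made here.

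The lowest value, shared by 7012 rows, was taken as no read in any library. This gave the geometric mean library size and, with 0.5 taken off, the implied mean reads per library, a mean on the log scale. For all 6402 rarely read rows the product of counts plus 0.5, doubled, was an odd whole number within 0.01. Levels were divided by the length of the canonical transcript in GENCODE 44, also on hg38, matched by Ensembl identifier for 25497 rows. Poisson intervals (95%) and floors cover counting error only. Both used the log-scale means, which lie below ordinary means where counts differ between libraries. Calculations used Python 3.11.15, numpy 2.4.6, pandas 2.3.3 and scipy 1.17.1, and the recovery of reads was tested on simulated data. All members are named. Of the other genes, the 5 highest per kb and the isoforms at or below 3 reads are named, except some that are not reported here. PFN1, YOD1, SENP1, DCAF6, SAMD14, SLC2A14 and SLC16A3 were chosen after their values were seen, as was the CG count. The members and lists were chosen with earlier results of these data known. Alternatives were other lengths, the 0.5 kept, pseudogene rows added, other rank pools and other floors.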

Additional observations from a re-analysis of the deposited data

How the results depend on the processing

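No paired analysis was possible because the column used is a mean over all libraries. For the same reason the fits between OZO and OLO, the fits without each replicate and the filters on library values were not run.

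The median member level of 4.94 log2 CPM per kb became 4.09 with merged exons and 4.82 with the longest transcript, both of which lengthen genes. The number of members in the top 10%, 18 among genes with a read, was 11 when genes averaging under 10 reads left the ranking. By the log-scale mean, 1 member was at the floor of 3 reads and 0 were at a floor of 1 read.

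Of 10 steps, 8 kept their leading isoform with merged exons, 8 with the longest transcript and 7 without length scaling. The lead was lost by SLC2A3 (47.2% with the longest transcript), HK1 (41.2% with merged exons, 44.9% without scaling), LDHB (47.4% with the longest transcript, 38.2% without scaling), PDK3 (29.6% with merged exons) and MPC1 (49.7% without scaling). Adding pseudogene rows or keeping the added 0.5 changed no lead. Depth limits PFKFB1, HKDC1 and ENO3 most.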
